A study of Mus musculus with 20 samples.

Results

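Left ventricle of SJL/J mice was compared with left ventricle of C57BL/6 mice across all genes of the array, using 8 of the 20 arrays of the study: SJL/J arrays 2 to 5 and C57BL/6 arrays 1 to 4. SJL/J is an inbred strain, derived from Swiss Webster stock, that carries an in-frame deletion of 171 bp in the dysferlin gene, which removes 57 amino acids, and it develops a myopathy of the limb muscles. C57BL/6 served as the normal control. All mice were female, bought at a young age, kept free of pathogens and examined at 32 to 34 weeks, untreated, and 5 mice per group are labelled. Total RNA (8 µg per sample) was hybridised to Affymetrix MG_U74Av2 arrays, which read each transcript with a set of short probes. The strains differ at many loci besides dysferlin, so an effect of dysferlin and an effect of the strain background cannot be told apart. Dysferlin itself has no value here, because none of the probe sets used carries the symbol Dysf.

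The fifth left ventricle array of each strain, SJL/J array 1 and C57BL/6 array 5, was left out of the comparison because both were hybridised in 1 run with quadriceps samples and read transcripts of skeletal muscle. On these arrays Myh4, a fast skeletal myosin, read 8512 and 5568, against 2.20 to 777 on the 8 arrays compared. The defining genes of heart were present on all 8, with Myl2, the ventricular light chain, at 8186 to 12866 and Tnni3, cardiac troponin I, at 10179.9 to 11306 in C57BL/6 and 13442 to 15617 in SJL/J. C57BL/6 array 1 carried some skeletal transcripts as well (Myh4 777, and Atp2a1, the skeletal calcium pump, 730). Markers of atrial muscle varied within both strains: Myl7, the atrial light chain, read 2168, 3079, 1015 and 152 on the C57BL/6 arrays and 5569, 598, 1129 and 2181 on the SJL/J arrays.

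By the hybridisation times in the headers, the 4 C57BL/6 arrays shared 1 run and the 4 SJL/J arrays another, on a later day, so strain and run cannot be told apart on these 8 arrays. A measure of RNA integrity also separated the strains. The ratio of the 5′ to the 3′ probe set of Gapdh was 0.697 to 0.866 on the C57BL/6 arrays (mean 0.780 ± 0.0813, SD, n = 4) and 0.101 to 0.335 on the SJL/J arrays (mean 0.258 ± 0.109, n = 4). The actin ratio was 0.532 to 0.617 in C57BL/6 and 0.121 to 0.330 in SJL/J. Neither ratio overlapped between the strains, and each difference had the smallest p that a two-sided exact permutation test of 4 against 4 can give (p = 0.0286, and 0.0286 after Benjamini-Hochberg adjustment over both ratios). The left-out pair, hybridised in a single run, differed the same way (Gapdh 0.470 in SJL/J and 0.865 in C57BL/6). The added control CreX-3 was higher on the SJL/J arrays, 5370 to 12462 against 2825 to 3683, and SJL/J array 5 had the highest value together with the lowest Gapdh ratio. All differences below were read against this background. The part of run and RNA integrity in them was tested only as far as the alternatives given beside them.

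**Figure D1:**
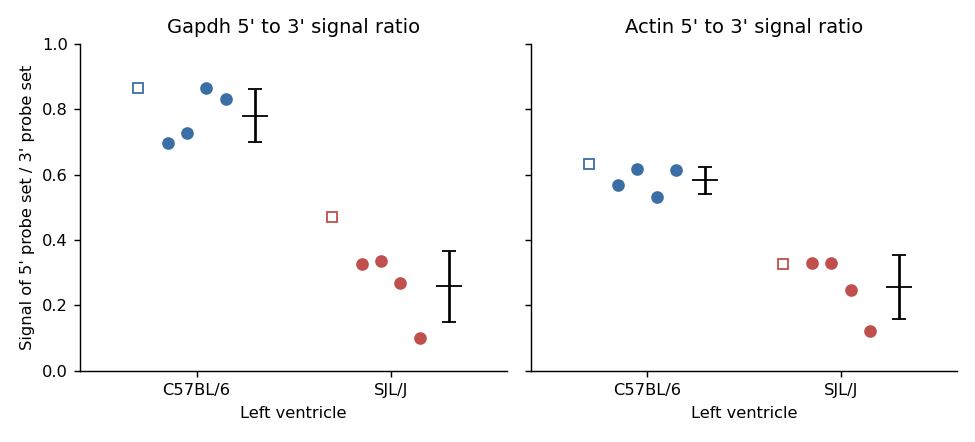
RNA integrity on the left ventricle arrays: the signal ratio of the 5′ to the 3′ probe set of Gapdh (left) and of actin (right), without unit. Filled points are the 8 arrays compared, open squares the left-out array of each strain, and the black bar is the mean with its SD (n = 4). The SJL/J arrays lie between 0.101 and 0.335 for Gapdh, all below the C57BL/6 arrays.

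Heart muscle works without pause and takes most of its ATP from oxidative phosphorylation in mitochondria, fed mainly by fatty acids. The respiratory chain passes electrons from NADH and succinate to oxygen through large complexes that each hold catalytic cores and many small accessory subunits, some of them in a heart and muscle version, and ATP synthase uses the proton gradient that results. Dysferlin sits in the muscle cell membrane and in transverse tubules, where it takes part in resealing tears together with annexins and calpains. Its loss is best known for a slowly advancing muscular dystrophy of the limbs, and heart disease has been described with it as well.

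Of 5209 genes with a signal above the filter, 1959 (37.6%) differed between the strains at a limma adjusted p under 0.05 (called below), 1022 of them higher in SJL/J (19.6%) and 937 lower (18%). At an unadjusted p under 0.05 there were 2449. A change of at least 2-fold was seen in 423 called genes, 144 higher and 279 lower. The median difference over all genes tested was 0.06 on the log2 scale, SJL/J minus C57BL/6. In 1685 called genes (32.3% of those tested) the 4 SJL/J values lay wholly beyond the 4 C57BL/6 values, and 1893 genes (36.3%) did so whether called or not.

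These counts depended on what was held constant. With the Gapdh ratio of each array as a covariate, 316 genes were called (6.07%), 259 of them among the 1959. The ratio did not overlap between the strains, so this covariate fit holds no SJL/J and C57BL/6 arrays of equal ratio. A call kept with the covariate therefore does not separate strain from RNA integrity. With run as a block on all 10 left ventricle arrays, 51 genes were called (0.979%), 47 of them among the 1959. That fit takes its strain difference from the left-out pair alone, the single run that holds both strains. The left-out pair gives a direction that did not enter the comparison: SJL/J array 1 minus C57BL/6 array 5 had the same sign in 1661 of 1959 called genes (84.8%) and in 1912 of 3250 genes not called (58.8%). Among called genes changed at least 2-fold it had the same sign in 388 of 423 (91.7%), and the median of its difference was 52.7% of the difference on the 8 arrays. The pair shares the strains' contrast in Gapdh ratio, so a matching sign does not separate strain from RNA integrity.

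**Figure D2:**
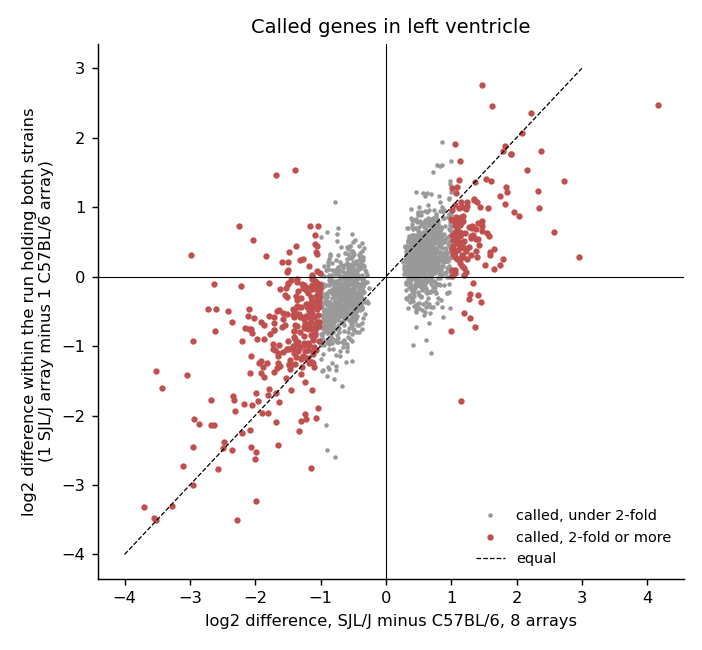
Differences between the strains in the 1959 called genes, on the log2 scale, SJL/J minus C57BL/6: the 8 arrays compared (x axis) against the pair of arrays hybridised in a single run (y axis). Each point is a gene, red where the change on the 8 arrays was at least 2-fold, and the dashed line marks equal differences. In 1661 genes both values have the same sign.

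Among the 12 largest decreases in SJL/J ventricle were small subunits of the respiratory chain and of ATP synthase. Cox8b, a small subunit of cytochrome c oxidase in its heart and muscle form, read 3803, 3922, 3833 and 4202 on C57BL/6 arrays 1 to 4 and 326, 362, 339 and 353 on SJL/J arrays 2 to 5. The groups lay far apart, with little spread in either, a change of -3.51 ± 0.09 (log2, SE; n = 4 per group; limma adjusted p = 6.84e-10), or 11.4-fold lower in SJL/J. A further probe set of Cox8b read -2.29 on the log2 scale. Uqcr11, a small subunit of the cytochrome bc1 complex, read 3712, 3556, 3789 and 3812 in C57BL/6 and 404, 434, 355 and 357 in SJL/J. No SJL/J array came near a C57BL/6 array (-3.27 ± 0.10, adjusted p = 2.34e-09). Atp5e, the epsilon subunit of ATP synthase, read 1888, 1875, 2377 and 2029 against 200.5, 235, 188 and 104, with SJL/J array 5 lowest (-3.54 ± 0.21, adjusted p = 7.89e-07). Atp5k, which codes for a further small subunit of ATP synthase, fell from 877 ± 100.1 to 95.3 ± 50.7 (mean signal, SD, n = 4; -3.43 ± 0.40, adjusted p = 8.3e-05).

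Cox8b, Uqcr11 and Atp5e were about as low on the left-out SJL/J array as on the others. SJL/J array 1 read 308, 351 and 214 for them, where C57BL/6 array 5 of the same run read 3483, 3456 and 2374. These genes also kept their calls with the Gapdh ratio as a covariate (adjusted p = 3.28e-06, 1.06e-05 and 9.33e-05) and with run as a block (adjusted p = 2.19e-06, 6.1e-06 and 0.00211). Atp5k differed from them: SJL/J array 1 read 215 against 28.3 to 145 on the 4 SJL/J arrays compared, the pair's difference was -1.61, and the call was lost with run as a block (adjusted p = 0.478).

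**Figure D3:**
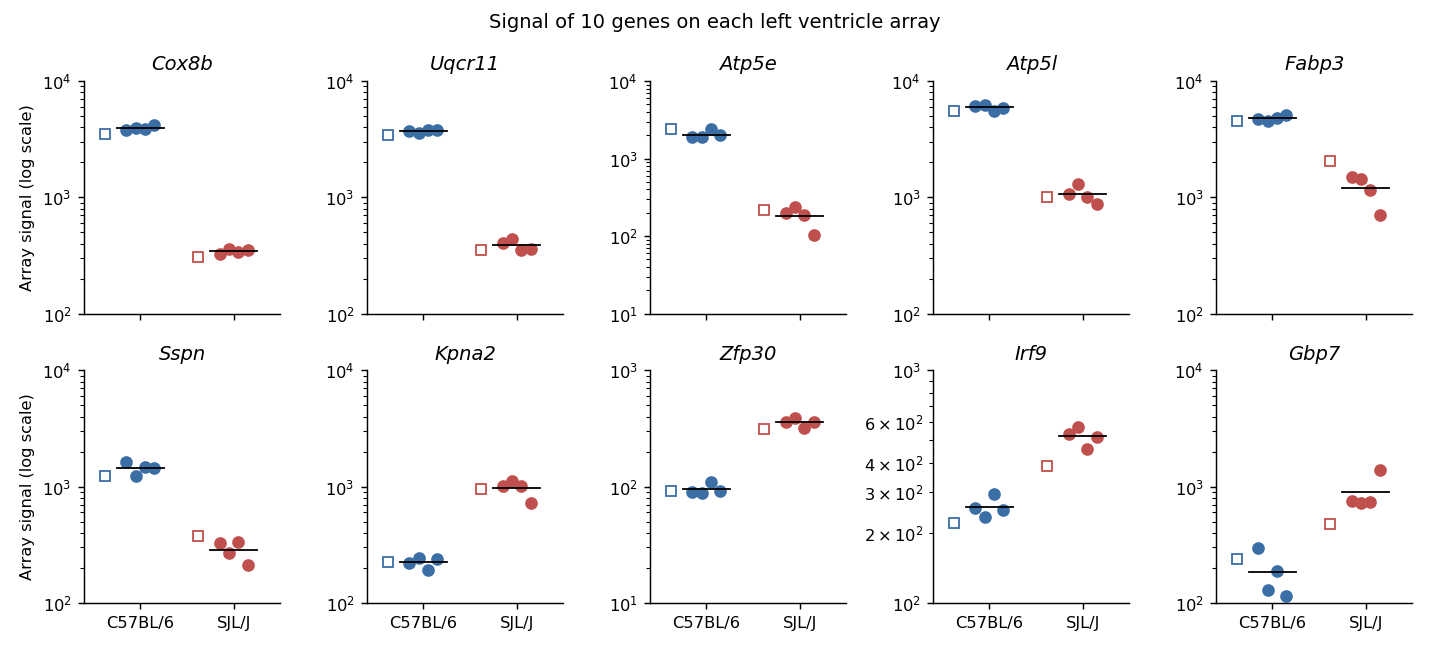
Array signal, on a log scale, of 10 genes on the left ventricle arrays of C57BL/6 (blue) and SJL/J (red) mice. Filled points are the 8 arrays compared with their mean as a line, and open squares are the left-out array of each strain. Cox8b reads 326 to 362 on the 4 SJL/J arrays and 3803 to 4202 on the 4 C57BL/6 arrays.

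Across the respiratory chain and ATP synthase the picture was mixed. Of 60 listed genes 51 are on the array and 47 passed the signal filter: 17 fell, 9 rose and 21 were not called, against 18% and 19.6% of all genes, and their median difference was -0.19. All 26 called members had the same sign in the left-out pair. With the Gapdh covariate 8 were called lower and 2 higher. Beside the genes above, Atp5l, a membrane subunit of ATP synthase, fell from 6132, 6169.6, 5550.4 and 5858 to 1061, 1307, 1015 and 874 (-2.49 ± 0.12, adjusted p = 1.38e-07), while a further probe set of it read -0.08. Cox7a1, the heart and muscle form of another oxidase subunit, fell from 3984 ± 163 to 953 ± 170.0 (-2.08 ± 0.12).

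Other genes among the 12 largest decreases had unrelated roles. Fkbp8, an anchor of the outer mitochondrial membrane that binds Bcl2, fell from 298, 525, 579 and 621 to 41.4, 49.8, 39.6 and 23.8 (-3.71 ± 0.27, adjusted p = 2.92e-06), with C57BL/6 array 1 lowest in its group. Sdc4, the cell surface proteoglycan syndecan-4, read 184 to 218 in C57BL/6 and 15.1 to 21.2 in SJL/J (-3.52 ± 0.22). Its difference was smaller in the left-out pair, -1.35. Rab6a, a GTPase of Golgi traffic, fell by 2.95 on the log2 scale, with another probe set of it at -0.07. Cyfip2, a component of the complex that drives actin branching, fell from 688 ± 44 to 90.3 ± 10.2 (-2.93 ± 0.12). Ccnd2, cyclin D2, fell by 2.86 and was not called with the Gapdh covariate (adjusted p = 0.0969). Myl1, a light chain of fast skeletal muscle, read 1241, 458, 558 and 505 in C57BL/6 and 164, 54.1, 86.9 and 52.7 in SJL/J, with the highest value on the C57BL/6 array that also carries Myh4. It was the only one of the named decreases among the 12 with the opposite sign in the left-out pair (0.31), and the part of skeletal transcripts in it was not tested. A further probe set among the 12 is annotated to the microRNA gene Mir686 and is given no value, since a probe set of this array does not read a mature microRNA.

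Increases were smaller. Kpna2, importin alpha 1 of nuclear import, rose from 222, 246, 193 and 240.4 on the C57BL/6 arrays to 1013, 1127, 1005 and 719 on the SJL/J arrays (2.09 ± 0.15, adjusted p = 2.59e-06). Its groups were well separated, and the left-out pair read 946 and 225, the same gap. Zfp30, a zinc finger protein, read 87.4 to 110.1 in C57BL/6 and 317 to 391 in SJL/J (1.92 ± 0.13). Ocel1, a protein with an occludin domain, rose by 1.82 ± 0.13. Wdr92, which takes part in assembly of dynein arms, rose from 3028 ± 301 to 11614 ± 3015. Kpna2, Zfp30, Ocel1 and Wdr92 kept their calls with the Gapdh covariate (adjusted p = 0.000205, 0.00216, 0.00689 and 0.00406) and with run as a block (adjusted p = 0.00577, 0.00609, 0.00562 and 0.0184).

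The other genes of this group held less firmly. Gatm, which makes the creatine precursor guanidinoacetate, rose from 114, 69.5, 77.9 and 56.5 to 310.2, 311, 291 and 502, with SJL/J array 5 above the rest (2.17 ± 0.23, adjusted p = 0.0576 with the Gapdh covariate). Top1, DNA topoisomerase I, rose from 330.1 ± 112 to 1314 ± 264 (2.04 ± 0.23). Uhmk1, a kinase that binds splicing factors, rose by 2.32 ± 0.21, with another probe set at 0.41. Itih5, which codes for a stabiliser of hyaluronan in the matrix, rose by 1.96 ± 0.15, and Tfpi, the inhibitor of the tissue factor pathway of clotting, by 1.86 ± 0.19. Spout1 rose by 2.21 ± 0.28, but another probe set of it read -0.45. Igkv6-23, a variable segment of the immunoglobulin kappa chain, read 22.4, 21.2, 20.6 and 41 against 113, 186, 81.3 and 856. It had the largest increase (2.96 ± 0.59, adjusted p = 0.00279), but its SJL/J mean rests on array 5, its probe set is shared between related segments, and it was not called with the Gapdh covariate (adjusted p = 0.847).

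Among genes of fuel uptake and use, Fabp3, Pfkm and Idh2 had large decreases. Of 28 tested genes of fatty acid uptake and oxidation, 8 fell, 3 rose and 17 were not called (median -0.12; 0.06 in the left-out pair), and the share called, 39.3%, was near the 37.6% of all genes. Fabp3, the fatty acid carrier of heart cytosol, read 4708, 4536, 4796 and 5153 on the C57BL/6 arrays and 1497, 1431, 1159 and 703 on the SJL/J arrays. Its SJL/J values were all lower, and followed the Gapdh ratio in that array 5 was lowest (-2.06 ± 0.20, adjusted p = 2.56e-05; -1.03 with the Gapdh covariate, adjusted p = 0.00587). Slc27a1, a fatty acid transporter, fell from 207 ± 83 to 25.8 ± 6.28. Decr1, needed for oxidation of unsaturated fatty acids, fell by 0.92 ± 0.10, and Crat, carnitine acetyltransferase, by 0.94 ± 0.13.

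Of 24 tested genes of glucose uptake and glycolysis, 10 fell, 2 rose and 12 were not called, with a median of -0.40, but the median of the left-out pair was 0.02. The share called was 50%, against 37.6% of all genes. Pfkm, the muscle form of phosphofructokinase, fell from 2840.4, 3237, 3018 and 3234 to 1044, 948, 822 and 462 (-1.97 ± 0.21, adjusted p = 4.71e-05). Slc2a4, the insulin-responsive glucose transporter, fell from 1225 ± 154 to 472 ± 127 (-1.41 ± 0.19; adjusted p = 0.161 with the Gapdh covariate). Pfkl, the liver form of phosphofructokinase, and Pkm, pyruvate kinase of muscle, fell by 1.06 and 1.37 on the log2 scale, with another probe set of Pkm at -0.25. In the left-out pair both strains read alike for these genes, 582 in SJL/J and 551 in C57BL/6 for Pfkl, and 3176 and 3257 for Pkm. Both left-out arrays carry skeletal transcripts, and the part of these in the pair's values was not tested.

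Of 18 tested genes of the citrate cycle, 5 fell, 4 rose and 9 were not called (median 0.07, 50% called against 37.6% of all genes). Idh2, the mitochondrial isocitrate dehydrogenase that uses NADP, fell from 3576, 3968, 3818 and 3946 to 1023, 1053, 939.7 and 713 (-2.05 ± 0.13, adjusted p = 8.52e-07). It stayed called with the Gapdh covariate (-1.52) but not with run as a block, and the left-out pair read -0.81. Dlst, a subunit of the oxoglutarate dehydrogenase complex, fell by 0.88 but read 0.21 in the left-out pair. In the creatine system 4 of 10 tested genes rose and 3 fell (70% called against 37.6% of all genes), with 1 and 3 without C57BL/6 array 1. Leaving out C57BL/6 array 3 or SJL/J array 3 also cut the 7 calls to 4. Gatm led the increases and Ckm, the muscle creatine kinase, fell by 0.70 ± 0.15, with 0.01 in the left-out pair and the opposite direction on its other probe set (0.22).

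Genes of the contractile apparatus moved in both directions. Of 16 tested sarcomere genes 6 fell, 4 rose and 6 were not called, with a median of -0.02, and the sign was the same in the left-out pair for all 10 called. The share called was 62.5%, against 37.6% of all genes. Tnnc1, the calcium-binding troponin C of heart and slow muscle, read 5146, 6119, 5812 and 6210.2 in C57BL/6 and 1927, 2157, 2297 and 1639.5 in SJL/J (-1.55 ± 0.12, adjusted p = 4.5e-06). Mybpc3, the cardiac myosin-binding protein C, fell from 8117 ± 581 to 4155 ± 381, and Ldb3, a Z-disc protein, fell by 0.91 ± 0.11. In the other direction, Actc1, cardiac actin, rose by 0.66 ± 0.11 on a probe set that may be shared with related actins. Tnni3, cardiac troponin I, rose by 0.47 ± 0.08, but read -0.13 and was not called after quantile normalization (adjusted p = 0.243). Myh6, the alpha myosin heavy chain of adult mouse heart, read 11065, 10979.6, 9858 and 10737 against 15076, 15735, 15383 and 24276. All SJL/J values were above all C57BL/6 values, and the highest came from array 5 (0.70 ± 0.14, adjusted p = 0.00291; 0.01 with the Gapdh covariate, adjusted p = 0.966). Myh7, the beta chain of the fetal and stressed heart, read 3072 to 4056 in C57BL/6 and 3364 to 4598 in SJL/J, overlapping ranges (0.13 ± 0.12, adjusted p = 0.425). Its probe set may be shared with related transcripts, and another probe set of Myh7 read -0.46.

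The natriuretic peptides, secreted by stretched heart muscle, were not called. Nppa, the atrial form, read 699, 1149, 725 and 646 in C57BL/6 and 2825, 712, 798 and 1280.2 in SJL/J (0.61 ± 0.36, adjusted p = 0.204). The high SJL/J value belongs to array 2, on which Myl7 was also highest. Nppb, the B-type peptide, read 4749, 7197, 5144 and 4825 against 4079, 3960.0, 6869.8 and 4273, also overlapping (-0.21 ± 0.18, adjusted p = 0.393). Of the whole list of 17 tested genes of cardiac stress and the fetal programme, 6 fell, 2 rose and 9 were not called (median -0.21, and 0.04 in the left-out pair). The share called was 47.1%, against 37.6% of all genes.

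Stress genes that fell included 2 of the Z-disc and nucleus. Ankrd1, a cardiac ankyrin repeat protein that is induced by load, read 5445, 6063, 5777 and 4957 on the C57BL/6 arrays and 2719, 2155, 3086 and 1972 on the SJL/J arrays (-1.18 ± 0.14, adjusted p = 9.61e-05). The left-out pair had a similar gap (-1.24), but Ankrd1 was called neither with the Gapdh covariate (-0.84, adjusted p = 0.069) nor with run as a block. Csrp3, muscle LIM protein, fell from 3343 ± 251 to 1378 ± 128 (-1.28 ± 0.10), and held under the Gapdh covariate as well as under the run block (adjusted p = 0.00756 and 0.0101). Acta1, skeletal actin, which the fetal heart also uses, fell by 1.09, with the opposite sign in the left-out pair (0.47).

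Calcium handling showed small increases of its main channel and pump. Of 14 tested genes 5 rose, 2 fell and 7 were not called (median -0.04, and 0.24 in the left-out pair). The share called was 50%, against 37.6% of all genes. Atp2a2, the calcium pump of the cardiac sarcoplasmic reticulum, read 6159.8, 6362, 5589.7 and 5859 in C57BL/6 and 8697, 8984, 7513 and 8723 in SJL/J (0.50 ± 0.09, adjusted p = 0.00152). Ryr2, the calcium release channel, rose from 2199 ± 104 to 2884 ± 191 (0.39 ± 0.09, adjusted p = 0.00618). Groups did not overlap for either gene. Atp2a2 was called neither with the Gapdh covariate (adjusted p = 0.106) nor with run as a block. Ryr2 kept its call with the Gapdh covariate (adjusted p = 0.0455) but not with run as a block. S100a1, a calcium sensor that binds both of them, fell from 3260.1 ± 360.2 to 1698 ± 195, and Hrc, a calcium store protein of the reticulum, fell by 0.60 ± 0.12. With the mean of all its probe sets S100a1 read 0.25 and was not called (adjusted p = 0.504). Pln, phospholamban, was not tested, as none of the probe sets used carries its symbol. Among 16 tested ion channels and pumps 5 fell, 3 rose and 8 were not called (median 0.02, 50% called against 37.6% of all genes). The 8 calls fell to 4 without C57BL/6 array 4 and to 5 without C57BL/6 array 1. Kcnk3, a background potassium channel, read 189 to 253 in C57BL/6 and 106 to 118 in SJL/J (-1.04 ± 0.13), and Gja1, connexin 43 of the gap junctions, rose by 0.55 ± 0.11, with another probe set at 0.06.

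In the dystrophin complex and its surroundings 1 gene stood out. Sspn, sarcospan, a membrane protein of the sarcoglycan subcomplex, read 1613, 1230.3, 1469 and 1456 on the C57BL/6 arrays and 330.3, 269.5, 335 and 213 on the SJL/J arrays. That is a 5.08-fold decrease without overlap (-2.35 ± 0.15, adjusted p = 1.32e-06), and it stayed called with the Gapdh covariate as well as under the run block (adjusted p = 0.00348 and 0.0196). Of the 16 tested members of the list 4 fell, 3 rose and 9 were not called, and the median was -0.04. The share called was 43.8%, against 37.6% of all genes. Vcl, vinculin, which links integrins to actin at costameres, rose by 0.69 ± 0.09. With the mean of all its probe sets in place of the brightest, it was -0.49 and not called (adjusted p = 0.170). Des, desmin, the intermediate filament of muscle, fell from 649 ± 75.2 to 372 ± 27.1.

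Partners of dysferlin in membrane repair were called in equal numbers in both directions. Of 17 tested members 5 rose, 5 fell and 7 were not called (median 0.12), a share called of 58.8% against 37.6% of all genes. All 10 called had the same sign in the left-out pair, but 0 were called with the Gapdh covariate. Anxa6, annexin A6, which gathers at membrane lesions, read 1095, 950.0, 1207 and 1221 in C57BL/6 and 605, 518, 482 and 438 in SJL/J (-1.13 ± 0.13, adjusted p = 6.82e-05). Capns1, the small subunit shared by the conventional calpains, fell from 1833 ± 193 to 973 ± 104 (-0.91 ± 0.11). Anxa1, annexin A1, a partner of dysferlin, went the other way, reading 295 to 474 in C57BL/6 and 639.7 to 1004 in SJL/J (1.17 ± 0.17, adjusted p = 0.000368).

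Genes induced by interferon were the list with the largest share of increases among those with at least 10 tested members. Of 35 listed, 25 are on the array and 21 passed the filter: 11 rose, 3 fell and 7 were not called, with a median of 0.61 against 0.06 for all genes, and 0.26 in the left-out pair. The share that rose was 52.4%, against 19.6% of all genes. Without SJL/J array 5, 7 rose and 3 fell, without C57BL/6 array 4 the 14 calls came to 9, and with the Gapdh covariate 2 were called higher. Irf9, the DNA-binding part of the complex that type I interferon activates, read 255, 235, 294 and 249.8 in C57BL/6 and 535, 572, 457 and 515 in SJL/J. Its ranges were well apart (1.01 ± 0.12, adjusted p = 8.34e-05; adjusted p = 0.021 with the Gapdh covariate). Ifi204, a sensor of DNA, rose from 196 ± 37.8 to 506 ± 54.3 (1.39 ± 0.15), read by a probe set that may be shared with related genes. Socs1, the feedback inhibitor of cytokine signalling, rose from 16.7, 19.4, 16.4 and 12.1 to 101, 67.3, 88.3 and 77.5 (2.37 ± 0.35, adjusted p = 0.000418). It was called neither with the Gapdh covariate (adjusted p = 0.0691) nor with run as a block. Guanylate-binding proteins act in defence within the cell, and Gbp3 rose by 1.14 ± 0.17. Gbp7, of the same family but not a member of the list, was among the 12 largest increases (2.34 ± 0.29). It read 299, 129, 188 and 115 in C57BL/6 and 747, 718, 735 and 1387 in SJL/J, array 5 being highest, and was not called with the Gapdh covariate (adjusted p = 0.144). Ifit1, which binds foreign RNA, rose by 1.66 ± 0.37, with a difference of 0.11 in the left-out pair. Rsad2, viperin, fell by 1.06 on the log2 scale (adjusted p = 0.0153), and read -2.04 in the pair. Its call was lost without C57BL/6 array 3.

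The promoters of Socs1 and Gbp3, of the list, and of Gbp7, outside it, hold matches to a sequence that was searched for and are printed to show them. Interferon regulatory factors, with Irf9 in the type I interferon complex, bind the interferon-stimulated response element, which holds GAAA repeats. The letters searched, on both strands and with overlaps counted, were GAAA, 2 bases of any kind and GAAA. Each sequence runs 5′ to 3′ from 250 bases before to 50 bases after the RefSeq gene start (build GRCm38.p6), with the matches in capitals. Socs1 lies at chr16:10785487-10785786 on the minus strand and holds 2 overlapping matches. Of 2 RefSeq promoters of Gbp3, the one at chr3:142559794-142560093 on the plus strand also holds 2, and the other, not printed, holds none. Gbp7 at chr3:142530086-142530385 on the plus strand holds 1 match.
Socs1: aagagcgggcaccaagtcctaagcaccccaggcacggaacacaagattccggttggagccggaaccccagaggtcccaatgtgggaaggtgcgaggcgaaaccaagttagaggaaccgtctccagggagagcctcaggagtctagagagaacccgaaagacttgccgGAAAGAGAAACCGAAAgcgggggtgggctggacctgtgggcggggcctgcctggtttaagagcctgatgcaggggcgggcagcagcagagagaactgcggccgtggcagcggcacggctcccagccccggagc
Gbp3: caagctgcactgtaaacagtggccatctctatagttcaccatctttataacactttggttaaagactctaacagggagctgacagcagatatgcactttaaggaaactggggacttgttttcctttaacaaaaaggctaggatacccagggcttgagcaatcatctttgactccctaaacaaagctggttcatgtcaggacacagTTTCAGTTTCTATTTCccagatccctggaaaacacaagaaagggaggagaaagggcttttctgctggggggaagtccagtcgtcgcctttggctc
Gbp7: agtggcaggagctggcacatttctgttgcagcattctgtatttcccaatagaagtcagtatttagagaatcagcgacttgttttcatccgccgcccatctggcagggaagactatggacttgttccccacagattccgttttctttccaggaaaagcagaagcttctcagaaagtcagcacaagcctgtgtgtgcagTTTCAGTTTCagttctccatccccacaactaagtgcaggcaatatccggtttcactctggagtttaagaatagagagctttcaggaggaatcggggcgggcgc
Among all 32851 RefSeq promoters of this length 1131 (3.44%) hold a match. Of the 15 tested genes of the list with a promoter sequence 9 hold one: 4 of 7 that rose, 2 of 3 that fell and 3 of 5 that were not called. A match describes the letters only.

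Other immune lists were short. Of 9 tested genes of MHC class I and peptide loading 3 rose, 1 fell and 5 were not called. The share called, 44.4%, was near the 37.6% of all genes. H2-D1, a class I heavy chain, read 952, 1172, 1049 and 1043 against 1760.1, 1858, 1156 and 1858 with 1 SJL/J array inside the C57BL/6 range (0.63 ± 0.15, adjusted p = 0.00762), and its other probe sets read -0.43 and 2.64, so its direction is uncertain. H2-Q4 fell by 0.88. Of 7 class II genes, H2-Eb1 alone rose (0.75 ± 0.23, adjusted p = 0.0267), with overlapping groups, and the call was lost on leaving out any of 5 arrays. Psmb9, a subunit of the immunoproteasome, was the called member of 5 in its list (0.88 ± 0.21). The share called was 14.3% in class II and 20% in the list of Psmb9, both below the 37.6% of all genes.

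Of 14 tested markers of macrophages and monocytes 4 rose, 1 fell and 9 were not called, and the median was 0.26. The share called, 35.7%, was near that of all genes, 0 were called with the Gapdh covariate, and the 5 calls fell to 3 without C57BL/6 array 4, SJL/J array 4 or SJL/J array 5. Cd53, a tetraspanin of white blood cells, rose from 51.7, 36.1, 34 and 16.7 to 119.5, 78, 108 and 169 (1.83 ± 0.36, adjusted p = 0.0024), and Mpeg1, a pore-forming protein of macrophages, rose by 0.54 ± 0.15 (adjusted p = 0.442 and 0.333 with the Gapdh covariate). The summed signal of all 23 markers on the array was 2380 to 3337 in C57BL/6 and 3365 to 4927 in SJL/J, with none of them at 0. The left-out SJL/J array 1 summed to 3260, within the C57BL/6 range, and C57BL/6 array 5 to 2779. In contrast, C1qc and C1qa, subunits of the complement starter C1q that macrophages make, fell. C1qc read 522, 485, 545 and 393 in C57BL/6 and 324, 245, 282 and 266 in SJL/J (-0.80 ± 0.14, adjusted p = 0.00104), and C1qa fell by 0.72 ± 0.15. Neither was called with the Gapdh covariate (adjusted p = 0.137 and 0.0584). Ccl2, the chemokine that draws monocytes, rose from 72.8 ± 19.9 to 209.8 ± 31.5 (1.56 ± 0.22), and Cxcl14 fell by 0.77, a call lost on leaving out any of 5 arrays.

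Markers of B and plasma cells summed to 530 to 724 in C57BL/6 and 755 to 915 in SJL/J. The left-out C57BL/6 array 5 summed to 1051, above that SJL/J range, and SJL/J array 1 to 1324. Of 5 tested markers 2 rose, a share called of 40%, near the 37.6% of all genes. Jchain, which joins secreted antibodies, rose from 21.4, 28.6, 23.5 and 16.2 to 60.1, 73.6, 49.1 and 155 (1.79 ± 0.41, adjusted p = 0.00542), and Ms4a1, CD20, by 0.59 ± 0.20, a call lost on leaving out any of 7 arrays. Of the markers of T and NK cells only 3 of 17 on the array passed the filter. Thy1, which fibroblasts also carry, rose by 1.18 ± 0.33, and Cd6 fell by 0.57, a call lost on leaving out any of 5 arrays. Among regulators of complement, Cd59b, which blocks the membrane attack complex, fell from 199.5, 199, 178 and 173 to 83.4, 79.6, 76 and 78.1 (-1.24 ± 0.13, adjusted p = 5.14e-05), and Serping1, the C1 inhibitor, rose by 0.98 ± 0.12, with 0.07 in the left-out pair. In bulk tissue, more cells of a type and more RNA per cell cannot be told apart.

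Among 33 tested genes of the matrix and of scarring 8 rose, 2 fell and 23 were not called (median 0.17). The share called, 30.3%, lay below the 37.6% of all genes, and the share that rose, 24.2%, was close to the 19.6% of all genes. With the Gapdh covariate 1 was called, higher in SJL/J. Postn, periostin, a product of activated fibroblasts, read 248, 246, 335 and 232 in C57BL/6 and 653, 601, 586 and 445 in SJL/J. The groups did not overlap (1.11 ± 0.15, adjusted p = 0.000296), and the call held with the Gapdh covariate (adjusted p = 0.00581). It did not hold with run as a block, and the left-out pair read 0.51. Lum, lumican, a proteoglycan that spaces collagen fibrils, rose by 0.72 ± 0.11, and Dcn, decorin, by 0.51 ± 0.10, but the left-out pair read 0.09 and 0.01 for them. Nid2, a basement membrane linker, rose by 1.40 ± 0.27.

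Among cell types of the heart wall, fibroblast markers gave 7 increases and 3 decreases of 15 tested (median 0.23, and -0.06 in the left-out pair). The share called was 66.7%, against 37.6% of all genes. Pdgfra, the receptor that marks cardiac fibroblasts, read 598, 565, 462 and 355 on the C57BL/6 arrays and 1229.5, 1351, 1308 and 869 on the SJL/J arrays (1.27 ± 0.18, adjusted p = 0.000372). The left-out pair had the opposite sign, 637 in SJL/J and 793 in C57BL/6. Fbln1, fibulin-1, fell by 0.89 ± 0.13, with other probe sets at -0.24 and -0.62. The summed fibroblast markers were 14331 to 15415 in C57BL/6 and 15720 to 18025 in SJL/J. In the left-out pair the order was reversed, with 13261 in C57BL/6 and 12648.5 in SJL/J.

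Of 19 tested endothelial markers 6 fell, 3 rose and 10 were not called (median 0.05, 47.4% called against 37.6% of all genes). Their summed signals overlapped, 9119 to 9876 in C57BL/6 and 8651 to 10731 in SJL/J. Aqp1, the water channel of capillary walls, fell from 1129, 772, 1184 and 1225 to 198, 162, 148 and 161. It was 6.37-fold lower without overlap (-2.67 ± 0.16, adjusted p = 7.12e-07), and held under the Gapdh covariate as well as under the run block (adjusted p = 0.00216 and 0.0194). Flt1, a receptor of VEGF, fell by 0.75 ± 0.11, but the left-out pair read 0.09. Of 13 tested markers of smooth muscle and pericytes 4 fell, 2 rose and 7 were not called (46.2% called against 37.6% of all genes). Rgs5, a pericyte marker that curbs G protein signals, fell from 178, 171, 212 and 198 to 49.7, 49.2, 63.9 and 33 (-1.99 ± 0.21, adjusted p = 4.63e-05), while another probe set of it read -0.65.

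Markers of other tissues that a ventricle sample may hold were also read. Of 6 tested atrial markers and 8 erythroid markers 0 were called by limma (the summed atrial markers spanned 1096 to 5716 in C57BL/6 and 1804 to 10826 in SJL/J, and the erythroid ones 6131 to 9766 and 4213 to 9353). At the same adjusted threshold, all 10 arrays gave 0 atrial and 1 erythroid. Of 7 tested markers of nerve 1 fell (14.3%, against 18% of all genes), Uchl1 (-0.95 ± 0.31), a call lost on leaving out any of 3 arrays. Adipocyte markers gave 1 increase and 2 decreases of 13 (23.1% called against 37.6% of all genes). Their sum was 10095 to 10972 in C57BL/6 and 12136 to 16584 in SJL/J. That sum is carried in part by Lpl, lipoprotein lipase, which heart muscle also makes and which rose by 0.65 ± 0.13 (-0.76 on its other probe set and -0.06 with the mean of both). Of 16 tested skeletal markers 6 fell (37.5%, against 18% of all genes) and 0 rose (median -0.93, and 0.28 in the left-out pair). Their sums were 17478 to 19808 in C57BL/6 and 9884 to 13597 in SJL/J.

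Of 37 tested genes of the defence against oxidants, 8 fell, 3 rose and 26 were not called (median -0.10). The share that fell, 21.6%, was near the 18% of all genes, and the share called, 29.7%, lay below the 37.6%. The 11 calls came to 6 without C57BL/6 array 3, 5 without C57BL/6 array 4, 7 without SJL/J array 3 and 5 without SJL/J array 4. Mgst3 and Mgst1, microsomal glutathione transferases, led: Mgst3 read 1961, 1979, 1672 and 2052 in C57BL/6 and 471, 541, 468 and 360.0 in SJL/J (-2.07 ± 0.13, adjusted p = 1.08e-06). Mgst1 read 374 to 574 and 98.8 to 135 (-2.06 ± 0.16). Both were as low on the left-out SJL/J array, at 320.3 and 121, and both held with run as a block (adjusted p = 0.00101 and 0.0163). Gsto1, another glutathione transferase, fell by 0.46 ± 0.11.

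The metallothioneins, which bind zinc and copper and respond to glucocorticoids, fell too. Mt1 read 1075, 1760.4, 1583 and 1633 against 553, 715, 590.0 and 627 (-1.27 ± 0.15, adjusted p = 0.000123). Mt2 read 458, 1065, 908 and 775 against 550.1, 524, 466 and 444, overlapping on C57BL/6 array 1 (-0.63 ± 0.22, adjusted p = 0.0388), and its call was lost on leaving out any of 7 arrays. Of 16 tested genes that respond to glucocorticoids 3 fell (18.8%, against 18% of all genes) and 0 rose, and 1 fell without SJL/J array 5. The calls also came to 1 without C57BL/6 array 3, SJL/J array 2 or SJL/J array 4.

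Chaperones moved both ways, with 9 of 33 tested higher, 6 lower and 18 not called (median 0.16, 45.5% called against 37.6% of all genes). Serpinh1, the collagen chaperone Hsp47, fell most clearly among them, from 661, 706, 721 and 599 to 140.1, 157, 179.7 and 73.9 (-2.36 ± 0.23, adjusted p = 2.84e-05), and the left-out pair had the same gap (-2.50). Stip1, which links Hsp70 with Hsp90, fell by 1.34 ± 0.15, and Hspa4, an exchange factor of Hsp70, by 0.65 ± 0.09, though 2 of its other 3 probe sets ran the opposite way. Dnaja1, a helper of Hsp70, rose by 0.69 ± 0.11, against -0.05 in the left-out pair. Of 21 tested immediate early genes 5 rose, 2 fell and 14 were not called, and the 7 calls came to 4 without SJL/J array 4. The share called was 33.3%, against 37.6% of all genes. Ier3 and Ier2 fell by 1.07 and 0.89, and Jund rose by 0.45 ± 0.12 and Fosb by 0.56 ± 0.16. Fosb lost its call without SJL/J array 4 and had the opposite sign in the left-out pair (-0.19).

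Of 14 tested genes of the circadian clock 3 rose, 2 fell and 9 were not called, a share called of 35.7%, and both activators and repressors were among those that rose. Arntl, which codes for BMAL1, read 201, 184, 162 and 124 in C57BL/6 and 279, 209, 289 and 258 in SJL/J (0.64 ± 0.17, adjusted p = 0.0122). Clock, its partner, rose by 0.59 ± 0.18 (adjusted p = 0.0211), a call lost on leaving out any of 3 arrays, and Cry1, a repressor, rose by 0.50 ± 0.17 (adjusted p = 0.0401) on a probe set that may be shared with related transcripts. Nr1d1, REV-ERB alpha, which represses Arntl, fell by 0.58 ± 0.14. Per1, another repressor, fell by 1.65 with overlapping groups, 31.5 to 218 in C57BL/6 and 10.6 to 41.3 in SJL/J (adjusted p = 0.0498), a call lost on leaving out any of 5 arrays. The 5 calls came to 2 without C57BL/6 array 2 or 4 and to 3 without SJL/J array 4 or 5, and 0 were called with the Gapdh covariate. No source used here gives the hour at which tissue was taken, and its part was not tested.

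In lists of protein turnover 64.3% of proteasome genes and 78.3% of ribosomal protein genes were called, against 37.6% of all genes, in both directions. With the Gapdh covariate 3 and 1 were called, all lower, and with run as a block 0 in either list. Of 28 tested genes of the proteasome and ubiquitin ligases 10 fell, 8 rose and 10 were not called (median -0.16). Psmd13, a subunit of the 19S cap, read 183 to 265 in C57BL/6 and 81 to 87.1 in SJL/J (-1.41 ± 0.14, adjusted p = 3.91e-05). Psmd3 fell by 1.06 ± 0.12, Psmd11 by 0.83 ± 0.11, and Psmb2, of the catalytic core, by 0.84 ± 0.12. Of 23 tested genes of cytosolic ribosomal proteins 11 fell, 7 rose and 5 were not called (median -0.21). Rpsa fell from 1203 ± 52.4 to 636 ± 52.9 (-0.92 ± 0.10), and Rpl37a and Rpl6 fell by 0.62 and 0.60. Rps28 rose by 0.72 ± 0.12, while its other probe sets read -0.24 and 0.10. Ribosomal proteins have many near-identical copies in the genome, so such values are uncertain.

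Of 29 tested lysosomal genes 10 fell, 8 rose and 11 were not called (median -0.21, and -0.02 in the left-out pair). The share called was 62.1%, against 37.6% of all genes. Ctsd, the main aspartic protease of lysosomes, fell from 2552, 3276, 3037 and 3126 to 1347, 1299, 1036 and 1045 (-1.35 ± 0.12, adjusted p = 1.68e-05). Ctse, a related protease, fell by 1.53 ± 0.15, with a further probe set at -1.95. Gaa, acid alpha-glucosidase, which degrades glycogen in lysosomes, fell by 0.78 ± 0.12. Npc1, which exports cholesterol from the lysosome, rose from 382, 403, 481 and 477 to 1016, 976, 920.5 and 846 (1.11 ± 0.12, adjusted p = 4.42e-05) and stayed called with the Gapdh covariate (adjusted p = 0.00468).

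**Figure D4:**
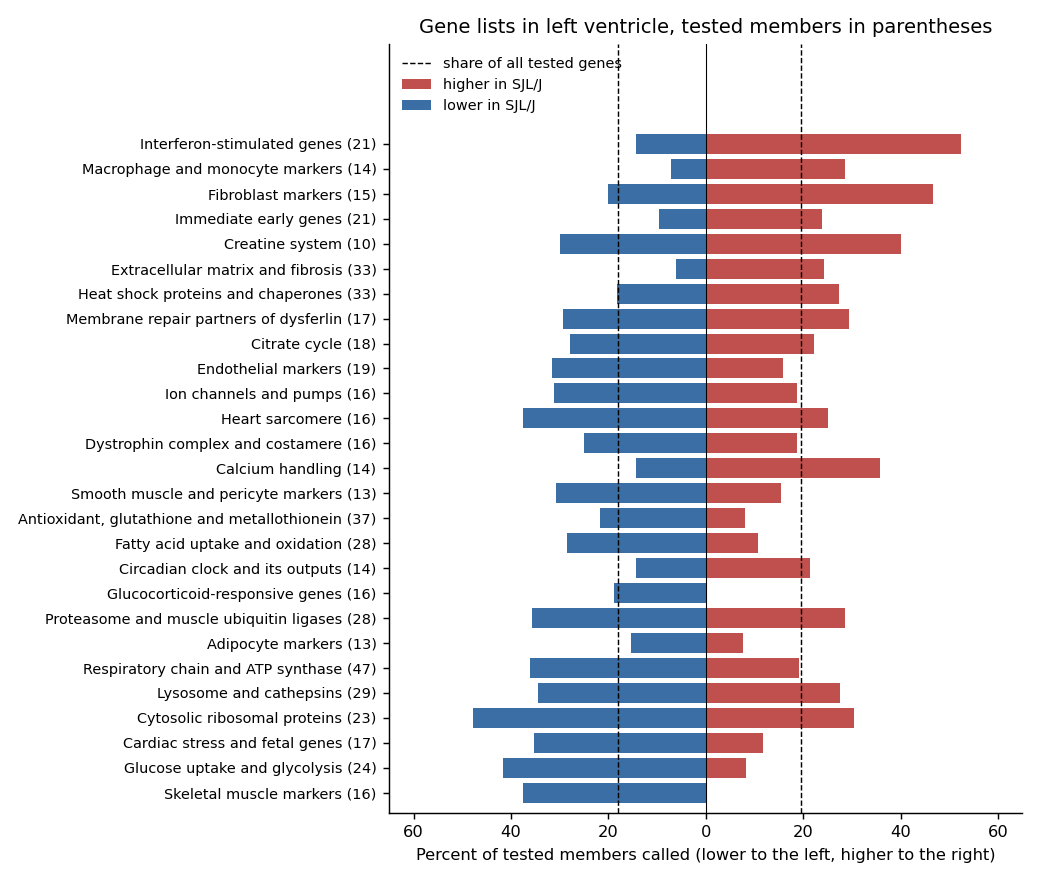
Share of tested members called in left ventricle for the gene lists with at least 10 tested members, in percent: higher in SJL/J to the right (red), lower to the left (blue), lists ordered by their median difference. Dashed lines mark the shares over all 5209 genes, 19.6% and 18%. Interferon-stimulated genes, with 11 of 21 higher, have the longest bar to the right.

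The strain difference was then set against that in quadriceps, a limb muscle that the SJL/J myopathy affects (SJL/J arrays 2 to 4 and C57BL/6 arrays 1 to 5, none of them in the mixed run). In a model of both tissues, 1108 of 5512 genes (20.1%) had a strain difference that differed between left ventricle and quadriceps at a limma adjusted p under 0.05, 470 higher in ventricle and 638 lower (1853 at an unadjusted p under 0.05). The quadriceps arrays lay in other runs and partly in another chip lot, so tissue, run and lot cannot be told apart in it. Within quadriceps, C57BL/6 arrays 1, 2, 3 and 5 shared 1 run and 1 chip lot. SJL/J arrays 2 to 4 lay in another run and lot with C57BL/6 array 4, so strain nearly coincides with both. The Gapdh ratio was 0.502 to 0.663 on those SJL/J arrays, above the 0.101 to 0.335 of SJL/J ventricle, and 0.487 to 1.06 on the C57BL/6 quadriceps arrays. It was not a covariate in this test, and its part was not tested. Some of the quadriceps arrays carried heart transcripts. C57BL/6 array 2 read 3392 for Myh6 and 2049 for Tnni3, and SJL/J array 3 read 4623 and 4243. C57BL/6 array 4 read less, 870.1 and 1202.5, but more than the 93.5 and 81.5 of C57BL/6 array 1. Without C57BL/6 array 2 and SJL/J array 3, but with C57BL/6 array 4 kept, 749 genes were called in the test between tissues.

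Cox8b, Uqcr11, Atp5e and Atp5l, which fell in ventricle, did not read lower in SJL/J quadriceps. Cox8b read 2597 ± 734 in C57BL/6 quadriceps (SD, n = 5) and 3644 ± 261 in SJL/J quadriceps (n = 3), a difference of 0.55 ± 0.20 on the log2 scale, and the test of the difference between tissues gave -4.06 ± 0.28 (adjusted p = 1.28e-07). For Uqcr11 that test gave -3.73 ± 0.42, for Atp5e -3.88 ± 0.32 and for Atp5l -3.10 ± 0.20. A left-out SJL/J quadriceps array of the mixed run, array 1, read 252 for Cox8b, 166 for Uqcr11 and 111 for Atp5e, near the levels of SJL/J ventricle, and the other, array 5, read 2850.0, 2315 and 1288. Both arrays carried heart transcripts at about the level of ventricle. Myh6 read 13893 on array 1 and 14702 on array 5, and Tnni3 read 13593 and 14913. Array 1 also had a Gapdh ratio of 0.267, within the range of the SJL/J ventricle arrays, an actin ratio of 0.358, just above theirs, and a wash protocol used for no other array. The part of these in the low values was not tested.

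Ankrd1 and Rrad ran in opposite directions in the tissues. Of 18 tested stress and fetal genes 6 differed between tissues, and Csrp3 did not pass that test (-1.59 ± 0.72, adjusted p = 0.128). Ankrd1 fell in ventricle but rose in quadriceps, from 219 ± 255 to 1456 ± 177 (quadriceps difference 3.34 ± 0.52; between tissues -4.53 ± 0.73, adjusted p = 0.000486). Rrad, a GTPase that restrains calcium channels, fell from 2381 ± 397 to 957 ± 149.9 in ventricle and rose from 118 ± 49.2 to 1174 ± 208 in quadriceps (-4.69 ± 0.33, adjusted p = 1.28e-07). In ventricle alone Rrad was called neither with the Gapdh covariate (adjusted p = 0.0589) nor with run as a block. Mt1 and Mt2 rose in quadriceps by 2.88 ± 0.32 and 4.13 ± 0.30, and the tests between tissues gave -4.14 ± 0.45 and -4.76 ± 0.41. C1qa and C1qc, lower in ventricle, were higher in quadriceps by 1.90 ± 0.31 and 1.20 ± 0.23. Ucp1, the uncoupling protein of brown fat, and Cidea, which acts on lipid droplets in brown fat, were higher in SJL/J quadriceps (5.11 and 3.84). In ventricle Cidea was not called (-0.35 ± 0.19, adjusted p = 0.169), and Ucp1 was below the filter, at 8 to 33.6 in C57BL/6 and 5.4 to 29 in SJL/J.

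Fewer of the named genes were relatively higher in ventricle. Ces1d, a carboxylesterase, rose from 504.1 ± 89.4 to 995 ± 175 in ventricle and fell in quadriceps (2.89 ± 0.33, adjusted p = 1.96e-05). Pla2g7, which inactivates platelet-activating factor, rose by 1.07 ± 0.24 in ventricle and fell by 1.78 ± 0.20 in quadriceps. Dennd4c, an activator of Rab10, had 2.32 ± 0.40. Mstn, myostatin, and Mup5, a major urinary protein, were below the filter in ventricle, and fell or read lower in SJL/J quadriceps (-1.79, adjusted p = 0.0178, and -1.35, adjusted p = 0.0863). Arntl differed as well: it was higher in SJL/J ventricle and lower in SJL/J quadriceps (1.56 ± 0.34, adjusted p = 0.00477).

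Some strain differences were called in both tissues with the same sign. Rab6a was lower in quadriceps by 2.63 ± 0.32, close to its ventricle value, and the test between tissues gave -0.33 ± 0.44 (adjusted p = 0.646). Rgs5 (-2.11 ± 0.26 in quadriceps), Cd59b (-1.18 ± 0.18), Sspn (-1.36 ± 0.25), Mgst1 (-1.001 ± 0.30) and Ctse (-1.05 ± 0.20) were lower in both. Gatm (2.64 ± 0.30), Ocel1 (1.39 ± 0.17), Wdr92 (1.21 ± 0.22) and Irf9 (1.53 ± 0.36) were higher in both. None of these 10 genes was called in the test between tissues, which does not show that their differences were equal.

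**Figure D5:**
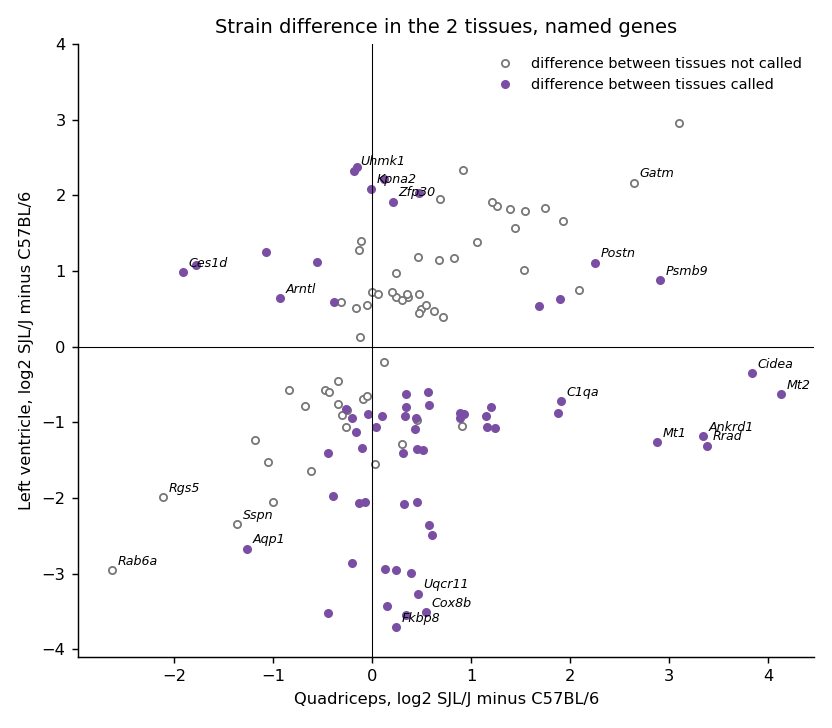
Strain difference, log2 SJL/J minus C57BL/6, of the named genes tested in both tissues: quadriceps on the x axis (3 against 5 arrays) and left ventricle on the y axis (4 against 4 arrays). Filled points are genes whose strain difference differed between tissues at an adjusted p under 0.05. Ankrd1, Rrad, Mt1 and Mt2 lie at the lower right, and Rab6a, Rgs5 and Sspn at the lower left.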

How the data were processed

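The deposited table holds a linear signal intensity for each probe set on each array, as made by the authors with standard Affymetrix procedures, per the labels; no source used here names the summarising software. The trimmed mean (2nd to 98th percentile) was 199.448 to 199.929 on all 20 arrays. Chip lot, wash protocol and hybridisation time came from the deposited experiment reports, and arrays whose times lay within 30 minutes of the next were taken as 1 run, which gave 5 runs. The number of arrays limits the precision, and a sequencing depth does not apply.

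Of 12488 probe sets 66 are controls, 10833 carry 1 gene symbol, 396 several and 1193 none in the platform annotation, and those with 1 symbol cover 8251 genes. Each gene was represented by its brightest probe set. Signals below 3.1 (the 5th percentile) were set to it, log2 was taken, and genes with a mean above 68.8 (the median signal) in at least 1 strain entered a model in limma 3.58.1 (R 4.3.3; lmFit, then eBayes with a mean-variance trend) without a block, and p-values were adjusted by the Benjamini-Hochberg method over all genes tested. Counts called by limma are at an adjusted p under 0.05. Fold changes are from this log2 scale, on which values at the floor have no order. The strain-by-tissue test is an interaction term over left ventricle and quadriceps arrays outside the mixed run. On simulated data of 5209 genes for the left ventricle comparison, of which 200 were changed, the fit recovered 28, 90, 98 and 98% of those changed by 0.5, 1, 1.5 and 2 on the log2 scale, with 10 false calls. The simulation held no effect of run or RNA integrity, and far fewer changed genes than the 1959 called here. Its rates therefore do not carry over to the comparison. Tables and figures were made with Python 3.11.15, pandas 2.3.3 and matplotlib 3.10.9.

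The arrays, gene lists and named genes were chosen with earlier results of these data known. Named genes are the 12 genes that rose most and the 12 that fell most, if called, without overlap and with a higher group mean of at least 200, the called members with the smallest p of each list (2, or 4 for lists of at least 20 tested members), 8 genes named beforehand (Dysf, Nppa, Nppb, Myh6, Myh7, Atp2a2, Pln and Ryr2), and the 6 largest differences between tissues in each direction. Actc1, Anxa1, Clock, Cry1, Hrc, Ifit1, Per1, Rsad2 and Tnni3 were named outside this rule, after their values were seen, as were the marker genes Atp2a1, Myh4, Myl2 and Myl7. Of 129 genes followed, 21 are read by a probe set whose suffix marks probes shared with related transcripts. Among the 122 of them that were called, 22 have further probe sets above the filter, which ran the opposite way in 6. Nothing states how the tissue was divided among samples beyond 1 label per array, so p-values measure the spread between these arrays. Promoters were read from RefSeq (GRCm38.p6). Alternatives were all 10 arrays, run as a block, the Gapdh ratio as a covariate, the replicate number as a block, other scaling, floors and filters, all probe sets, other variance models and leaving out each array.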

Additional observations from a re-analysis of the deposited data

Results flagged for a closer look

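Single arrays stood far from the others of their strain in 23 of 262 groups of 4 arrays examined for the named genes, where chance flags about 1 in 20, and 10 of the 23 concerned SJL/J array 5, the array with the lowest RNA integrity ratio. On that array they were Actc1 (16074 against 11568 to 12086), Gatm (502 against 291 to 311), Gbp7 (1387 against 718 to 747), Igkv6-23 (856 against 81.3 to 186), Lpl (14014 against 9445 to 9952), Myh6 (24276 against 15076 to 15735), Nr1d1 (267 against 366 to 384), Pla2g7 (101 against 72 to 74.4), Rab6a (43.5 against 105 to 110.4) and Rpl6 (1829 against 2465 to 2531), in signal against the range of the other 3 arrays. On other SJL/J arrays they were Clock on array 4 (361 against 234 to 253), H2-D1 on array 4 (1156 against 1760.1 to 1858), Nppb on array 4 (6869.8 against 3960.0 to 4273), Slc27a1 on array 2 (35.2 against 22.2 to 23) and Uchl1 on array 2 (32 against 85.1 to 91.9). On C57BL/6 arrays they were Igkv6-23 on array 4 (41 against 20.6 to 22.4), Myl1 on array 1 (1241 against 458 to 558), Nppa on array 2 (1149 against 646 to 725), Nppb on array 2 (7197 against 4749 to 5144), Postn on array 3 (335 against 232 to 248), Psmd3 on array 3 (285 against 331 to 339.8), Stip1 on array 4 (267 against 212 to 218) and Zfp30 on array 3 (110.1 against 87.4 to 90.9).

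In 69 of the named genes the strain difference differed between left ventricle and quadriceps by the interaction test at a limma adjusted p under 0.05, and the values here are log2 differences of differences, ventricle minus quadriceps. Subunits of oxidative phosphorylation among them were Cox8b (-4.06), Atp5e (-3.88), Uqcr11 (-3.73), Atp5k (-3.58), Atp5l (-3.10) and Cox7a1 (-2.40). Genes of fuel use were Slc27a1 (-3.19), Fabp3 (-2.51), Pfkl (-2.22), Idh2 (-1.98), Pkm (-1.88), Dlst (-1.77), Pfkm (-1.58), Decr1 (-1.26), Slc2a4 (-0.97), Crat (-0.74) and Ces1d (2.89). Stress genes, metallothioneins and immediate early genes were Mt2 (-4.76), Rrad (-4.69), Ankrd1 (-4.53), Mt1 (-4.14), Ier3 (-2.31) and Ier2 (-1.81). Genes of brown fat were Ucp1 (-5.78) and Cidea (-4.19). Genes of muscle structure, calcium handling and membrane repair were Myl1 (-3.38), S100a1 (-1.83), Capns1 (-2.07), Acta1 (-1.53), Des (-1.14) and Anxa6 (-0.97). Immune genes were H2-Q4 (-2.76), C1qa (-2.62), Psmb9 (-2.03), C1qc (-1.998), Cxcl14 (-1.34), H2-D1 (-1.27), Mpeg1 (-1.15), Pla2g7 (2.85) and Socs1 (2.53). Genes of protein folding and turnover were Serpinh1 (-2.93), Ctsd (-1.80), Psmd13 (-1.71), Stip1 (-1.23), Psmd3 (-1.10), Rpsa (-1.02), Rpl37a (-0.97), Psmd11 (-0.57) and Npc1 (1.67). Genes of matrix and vessels were Sdc4 (-3.07), Aqp1 (-1.41), Postn (-1.14) and Fbln1 (-0.84). The remaining genes with a relatively lower value in SJL/J ventricle were Fkbp8 (-3.95), Cyfip2 (-3.06), Ccnd2 (-2.66), Mgst3 (-1.94), Uchl1 (-1.39) and Hrc (-1.16). The remaining genes with a relatively higher one were Clock (0.98), Top1 (1.56), Arntl (1.56), Zfp30 (1.70), Kpna2 (2.09), Spout1 (2.10), Dennd4c (2.32), Uhmk1 (2.50), Mstn (2.61) and Mup5 (2.93).

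Skeletal transcripts appeared in the left ventricle samples kept out of the comparison. Myh4 read 5568 on C57BL/6 array 5 and 8512 on SJL/J array 1, and Atp2a1 read 5374 and 8227, against at most 777 and 730 on the other C57BL/6 ventricle arrays.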

How the results depend on the processing

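Of the 1959 genes called in left ventricle (1022 higher, 937 lower), 51 were called with run as a fixed block (12 higher, 39 lower) and 316 with the Gapdh covariate (123 higher, 193 lower). All other settings gave 1540 to 2111, and leaving out single arrays gave 1482 to 1871 (752 to 977 higher, 730 to 894 lower), lowest without C57BL/6 array 4. With the replicate block over numbers 2 to 4, 1760 genes were called. Left ventricle arrays of SJL/J and C57BL/6 with the same number did not deviate together (correlations of -0.03, 0.03 and 0.03). Whether ventricle and quadriceps arrays with the same number come from the same mouse was not tested. The test between tissues called 1108 genes as reported, 750 with the replicate block and 749 to 1151 under its alternatives. On leaving out single arrays, SJL/J minus C57BL/6 ran from -0.55 to -0.47 in the Gapdh ratio and from -0.351 to -0.281 in the actin ratio, each with the same exact permutation p as on all 8 arrays (0.0286, the smallest that 3 against 4 can give).

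With run as a block, and equally within the single run that holds both strains, Acta1 (0.47), Ckm (0.0084), Dlst (0.21), Flt1 (0.087), H2-Q4 (0.10), Myl1 (0.31) and Pfkl (0.078) changed sign, as did Dnaja1 (-0.050), Fosb (-0.19) and Pdgfra (-0.31). With the Gapdh covariate Cd6 (0.057), H2-Eb1 (-0.036) and Per1 (0.24) did so, with the mean of all probe sets Hspa4 (0.10), Lpl (-0.055), S100a1 (0.25) and Vcl (-0.49), and with quantile normalization Tnni3 (-0.13). The cause was not tested. Leaving out single arrays also moved the called counts of short lists (nerve 0 to 3, class II 0 to 2, erythroid 0 to 1, chemokines, B cells and T cells 1 to 2). Of 122 named genes called, 52 kept their call with the Gapdh covariate and 19 with run as a block. Run as a random block was not run, because each strain's 4 arrays lie in 1 run. Genes below the signal of 68.8 in both strains were not tested. On simulated data with 200 changed genes, changes of 0.5 on the log2 scale were mostly missed. With 1959 genes called here the threshold on unadjusted p is less strict, and changes near 0.5 were called, as for Atp2a2 (0.50) and Dcn (0.51).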

Other observations

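Of the genes called in left ventricle, 39 were also called both with the Gapdh covariate and with run as a block, 33 of them lower in SJL/J and 6 higher.

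Several genes with a strain difference in both tissues were also read on the SJL/J quadriceps arrays of the mixed run. Both of these arrays, 1 and 5, also carried heart transcripts (Myh6 13893 and 14702). The part of heart transcripts in the values below was not tested. Rab6a, which read 610.4 ± 221 in C57BL/6 quadriceps (SD, n = 5) and 96.6 ± 27.5 on the 3 other SJL/J quadriceps arrays, read 92.9 on SJL/J quadriceps array 1 and 523 on array 5. Gatm read 98.8 ± 39 in C57BL/6 quadriceps and 577 ± 61.7 on the 3 SJL/J arrays, and 625 and 279.6 on arrays 1 and 5. For Ocel1 the values were 92.8 ± 19.1 and 241 ± 30.9, and 304 and 167. For Cd59b they were 147 ± 31.6 and 63.5 ± 3.42, and 96.4 and 148. On the left ventricle arrays of that run, Rab6a read 134 on SJL/J array 1 and 735 on C57BL/6 array 5.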
